A study of Mus musculus with 16 samples.

Results

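The comparison described here set hearts of mice given nicotinamide mononucleotide (NMN) before doxorubicin (DOX_NMN) against hearts of mice given saline before doxorubicin (DOX_Vehicle), over all genes measured. Its members were chosen by the treatment in the labels, which gave 8 of the 16 libraries of the series, 4 per group. In the DOX_NMN group NMN at 500 mg/kg, and in the DOX_Vehicle group saline, went into the abdomen 30 min before 1 injection of doxorubicin at 15 mg/kg. The other 8 libraries came from Sham_NMN mice, which had NMN and then saline, and Sham_Vehicle mice, which had saline on both occasions. Every mouse was a wild-type C57BL/6 male, 8 weeks old when injected, and its heart was collected 5 days after the doxorubicin or the saline in its place. RNA was drawn from heart tissue without sorting of cells, so fewer cells of a type and less RNA per cell cannot be told apart. The labels number the replicates and say nothing more of them, so a p-value reflects only how far these samples spread, which may be technical. The hearts carried the defining transcripts of heart muscle, since the 12 cardiomyocyte markers together made up 43360 to 71060 CPM (counts scaled to an equal library total) in DOX_NMN hearts and 23910 to 34120 CPM in DOX_Vehicle hearts.

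Doxorubicin is an anthracycline that traps topoisomerase II on DNA and passes electrons to oxygen inside cells, and its use against cancer is limited by injury to heart muscle. NMN is the direct precursor of the coenzyme NAD, made in cells by NAMPT and turned into NAD by the NMNAT enzymes. NAD carries electrons from fuel oxidation to the respiratory chain, and sirtuins, PARP enzymes and CD38 consume it.

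Libraries held 13.9 M to 16.4 M counts (M, mega), with means of 14.7 M ± 0.801 in DOX_NMN, 15.8 M ± 0.497 in DOX_Vehicle, 15.0 M ± 0.699 in Sham_NMN and 15.8 M ± 0.545 in Sham_Vehicle (SD, n = 4 each). At this depth 3 counts corresponded to 0.182 to 0.217 CPM. This floor allows for counting error and nothing else. Of 30884 genes, 14716 had enough counts to be tested. The DOX_Vehicle libraries fell into 2 pairs. Replicates 1 and 2 differed from each other by a chi-square of 13.8 per gene and replicates 3 and 4 by 5.90, against 57.7 to 74.4 between the pairs. Replicates 3 and 4 of DOX_Vehicle, replicate 4 of DOX_NMN, replicate 4 of Sham_NMN and replicates 3 and 4 of Sham_Vehicle were also low in Mrps34, Cox11 and Scand1, which were picked with their values known. Together these 6 libraries are called the smaller side of the split and the other 10 the larger side. The larger side holds 3 DOX_NMN and 2 DOX_Vehicle hearts, and the smaller side 1 and 2. Folds on the smaller side therefore rest on 1 DOX_NMN heart and on 2 DOX_Vehicle hearts that differ little from each other, and are given as values with no test. What the split stands for was not tested.

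More than 1 gene in 3 differed between DOX_NMN and DOX_Vehicle hearts. Of 14716 genes tested, 5306 (36.1%) passed an adjusted p of 0.05 (edgeR, quasi-likelihood, Benjamini-Hochberg), and such genes are called here. Of them 2561 (17.4%) were higher and 2745 (18.7%) lower in DOX_NMN hearts. Upper-quartile scaling turned this balance, with 3036 higher and 2266 lower, and moved the median log2 fold over all genes to 0.07. The median log2 fold was 0.78 among the genes called higher and -0.66 among those called lower, and 0.00 over all genes tested. Changes over 2-fold were called for 931 genes (6.33%) that were higher and 728 (4.95%) that were lower, and changes over 4-fold for 218 (1.48%) and 188 (1.28%). The 4 DOX_NMN libraries lay apart from the 4 DOX_Vehicle libraries in 1866 genes (12.7%) where they were all higher and in 1891 (12.8%) where they were all lower, and 3385 genes (23.0%) were both called and apart. The count of calls was 3294 (23.6%) in a fit of the 8 doxorubicin libraries alone. It was 1636 (11.3%) among the 5 libraries on the larger side of the split, 3 DOX_NMN and 2 DOX_Vehicle. The 3 libraries on the smaller side gave 6584 (44.5%), a count that compares a single DOX_NMN heart with 2 near-alike DOX_Vehicle hearts and is not read further. Leaving out 1 library at a time gave 3760 to 6318. The share called was 35.2%, 26.9%, 26.2% and 34.1% without replicate 1, 2, 3 or 4 of DOX_NMN, and 36.4%, 42.3%, 25.6% and 25.2% without replicate 1, 2, 3 or 4 of DOX_Vehicle.

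**Figure D1:**
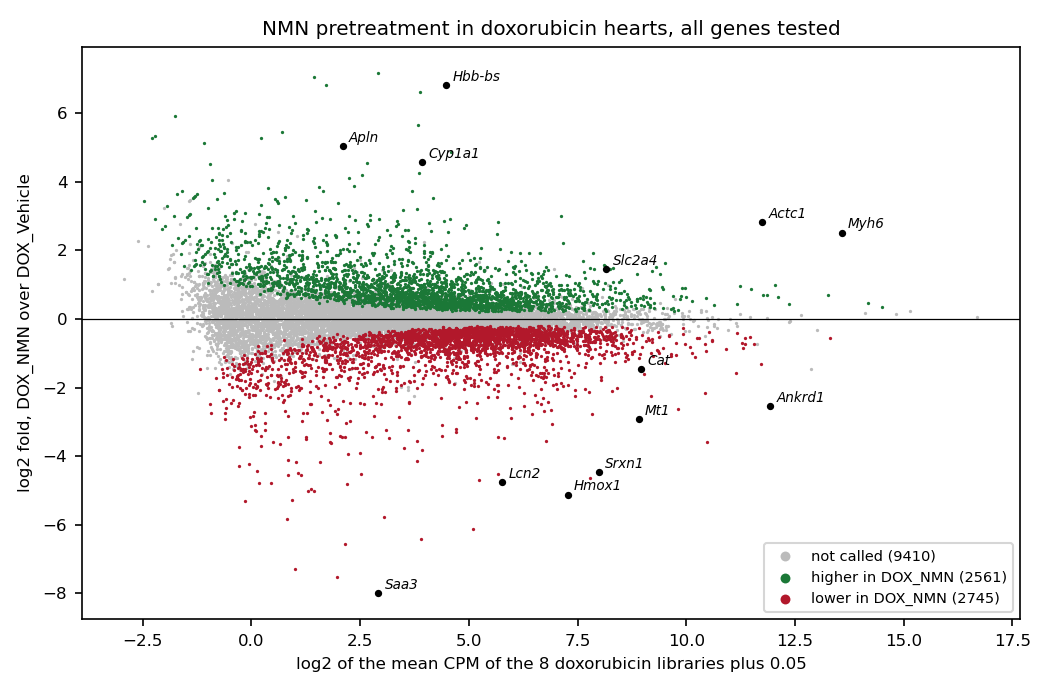
Log2 fold of DOX_NMN over DOX_Vehicle (vertical axis) against log2 of the mean CPM in the 8 doxorubicin libraries plus 0.05 (horizontal axis), 1 point per gene tested. Coloured points are the 2561 genes called higher and the 2745 called lower, grey points the 9410 not called, and black labelled points are genes described in the text; calls lie on both sides of 0 across the range of levels.

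The largest rise and the largest fall among genes with no overlap and a mean of at least 5 CPM in the higher group came from a peptide hormone and an acute-phase protein. Apln encodes apelin, a ligand that widens vessels and strengthens the heartbeat (ENSMUSG00000037010.7, chromosome X from 48025146 to 48034853 on GRCm38). Apln had 1.96, 10.6, 15.0 and 5.19 CPM in DOX_NMN hearts, against 0.315, 0.182, 0.262 and 0.197 CPM in DOX_Vehicle hearts. In DOX_Vehicle hearts it sat near the floor of 3 counts, while all 4 DOX_NMN hearts were above it (log2 fold 5.05, SE 0.67, edgeR adjusted p = 9.9e-05). Its receptor gene Aplnr went the same way. Aplnr had 8.03, 22.7, 29.3 and 11.5 CPM in DOX_NMN hearts, against 1.64, 2.36, 3.74 and 2.63 CPM in DOX_Vehicle hearts. Here too the groups lay apart (log2 fold 2.78, SE 0.67, edgeR adjusted p = 0.006). Saa3, an acute-phase serum amyloid, was the mirror image. Saa3 had 0.0675, 0, 0 and 0.137 CPM in DOX_NMN hearts, against 4.23, 1.33, 28.3 and 26.0 CPM in DOX_Vehicle hearts. Replicates 2 and 3 of DOX_NMN had no count and replicates 1 and 4 were under the floor of 3 counts (log2 fold -7.99, SE 1.27, edgeR adjusted p = 8.2e-04), so the fold depends on the prior count. Saa genes have close copies, and the division of reads among these is uncertain.

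Other genes with the largest rises have varied roles. Cyp1a1 encodes the cytochrome that the aryl hydrocarbon receptor induces (ENSMUSG00000032315.6, chromosome 9 from 57687928 to 57703824 on GRCm38). Cyp1a1 had 3.38, 85.2, 17.1 and 11.2 CPM in DOX_NMN hearts, against 0.442, 1.27, 1.31 and 1.91 CPM in DOX_Vehicle hearts. Replicate 2 of DOX_NMN was far above the others, and the fold was 3.10 without it (log2 fold 4.57, SE 0.97, edgeR adjusted p = 0.0029). Lrrc15, a leucine-rich repeat protein of the cell surface, was even within DOX_NMN. Lrrc15 had 16.5, 23.6, 33.9 and 34.9 CPM in DOX_NMN hearts, against 2.65, 1.76, 0.328 and 0.855 CPM in DOX_Vehicle hearts. Its DOX_NMN hearts were at least 6 times any DOX_Vehicle heart (log2 fold 4.26, SE 0.38, edgeR adjusted p = 4.9e-06). Itgb6, the integrin chain that pairs with alpha v to release TGF beta, was lowest in replicates 1 and 4 of DOX_NMN. Itgb6 had 4.19, 12.0, 18.2 and 3.62 CPM in DOX_NMN hearts, against 0.315, 1.57, 0.394 and 0.197 CPM in DOX_Vehicle hearts. The groups lay apart (log2 fold 3.89, SE 0.67, edgeR adjusted p = 7.0e-04). Mdga1, a membrane-anchored adhesion protein (log2 fold 4.19, SE 0.36, edgeR adjusted p = 2.1e-06), Snai3, a zinc finger repressor (log2 fold 3.85, SE 0.47, edgeR adjusted p = 3.1e-05), and Pla2g5, a secreted phospholipase (log2 fold 3.17, SE 0.40, edgeR adjusted p = 7.5e-05), were among the 15 as well. The 15 largest falls include Ngp, a granule protein of neutrophils (log2 fold -7.52, SE 1.51, edgeR adjusted p = 0.0018), Chil3, a secreted chitinase-like protein of myeloid cells (log2 fold -4.51, SE 0.77, edgeR adjusted p = 6.1e-04), and Cxcl13, a chemokine for B cells (log2 fold -6.56, SE 1.2, edgeR adjusted p = 9.7e-04). Cxcl13 stood at -5.06 without replicate 1 of DOX_Vehicle. Selp, the P-selectin by which vessel walls catch leukocytes, fell too (log2 fold -4.16, SE 0.89, edgeR adjusted p = 0.0025), with -3.49 without replicate 3 of DOX_Vehicle.

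Among 44 gene lists for pathways, those of heart muscle, calcium cycling, ion channels, glucose use and MHC class II held more genes called higher than lower in DOX_NMN hearts. Lists of antioxidant, acute-phase, immediate early, proteasome and ribosome genes held more that were lower. The share of a list's genes that was called can be read against the 36.1% of all genes. It was 94.4% for cytosolic ribosomal proteins, 88.9% for the proteasome, 80.0% for acute-phase genes and 77.8% for NRF2 and antioxidant genes. It was 26.3% for circadian clock genes, 20.0% for endoplasmic reticulum chaperones and 28.0% for interferon-stimulated genes. Of 28 acute-phase genes 20 were tested, and members high in DOX_Vehicle alone could pass the filter on low counts through that group.

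**Figure D2:**
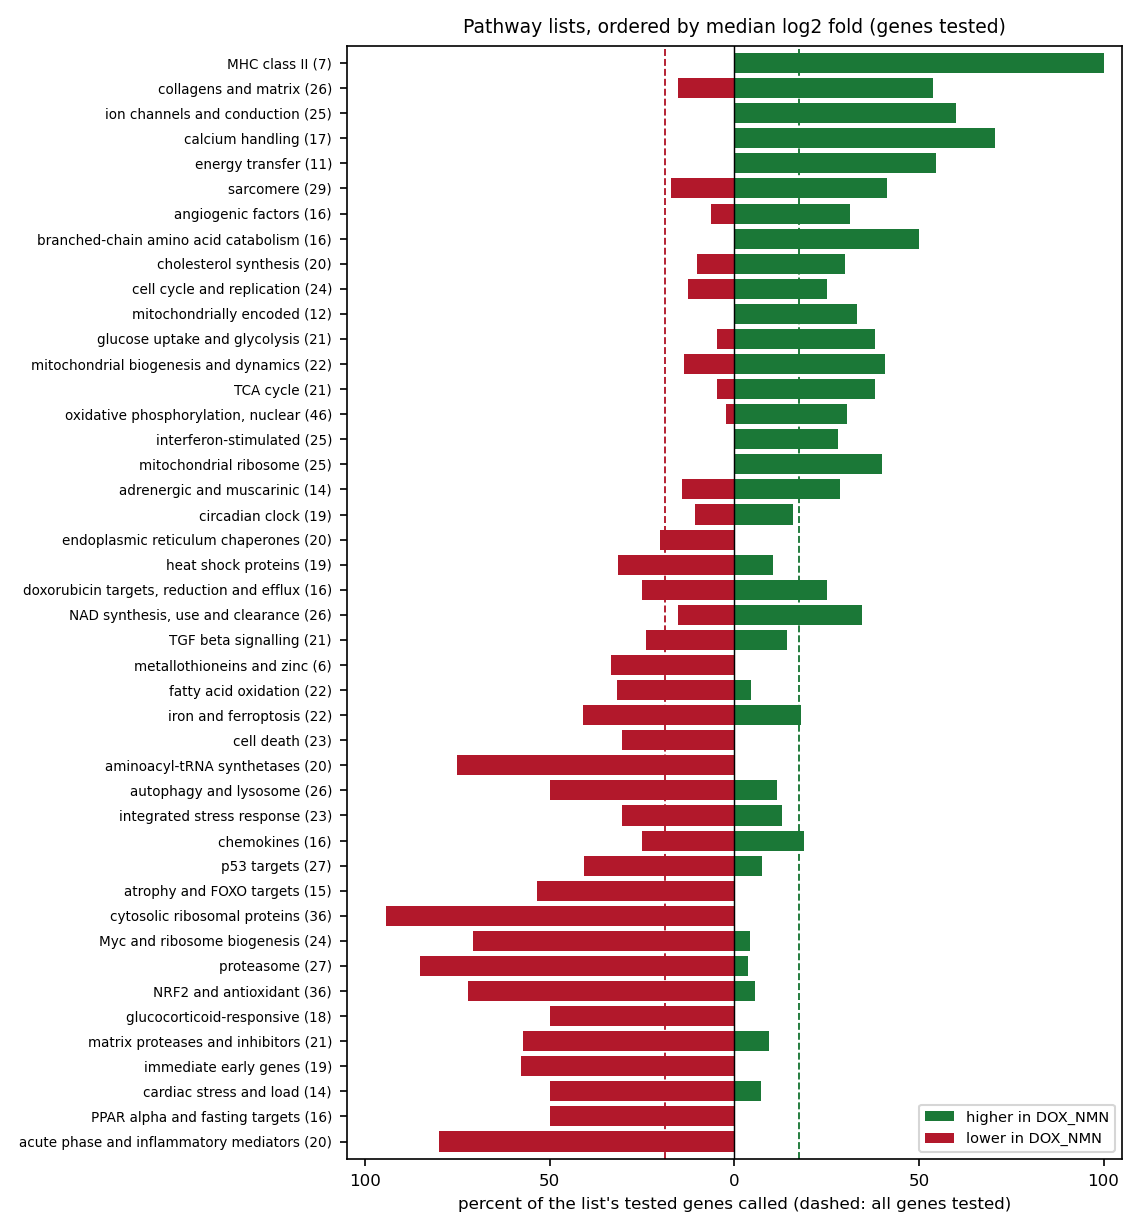
Share of the tested genes of each pathway list that was called higher (green, to the right) or lower (red, to the left) in DOX_NMN against DOX_Vehicle hearts, in percent, with lists ordered by their median log2 fold. The dashed lines mark all genes tested, 17.4% higher and 18.7% lower; MHC class II lies at one end with all 7 genes higher and the acute-phase list at the other with 16 of 20 lower.

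Genes of the contractile apparatus were more often higher than lower. Of 29 sarcomere genes tested 12 were called higher (17.4% of all genes were) and 5 lower, with a median log2 fold of 0.42. The largest fold, 6.62, was that of Myl7, an atrial myosin light chain described further on. Myh6 encodes the fast alpha myosin heavy chain that drives the adult mouse ventricle (ENSMUSG00000040752.16, chromosome 14 from 54941921 to 54966927 on GRCm38). Myh6 had 11238, 25096, 27285 and 19812 CPM in DOX_NMN hearts, against 2701, 2414, 4972 and 4445 CPM in DOX_Vehicle hearts. All DOX_NMN hearts exceeded all DOX_Vehicle hearts, with replicate 1 the lowest of the DOX_NMN group (log2 fold 2.52, SE 0.26, edgeR adjusted p = 8.2e-06). Actc1 encodes cardiac alpha actin of the thin filament. Actc1 had 2089, 7411, 9837 and 4825 CPM in DOX_NMN hearts, against 805, 1236, 664 and 683 CPM in DOX_Vehicle hearts. The groups lay apart again, and replicate 1 of DOX_NMN was once more the lowest of its group (log2 fold 2.83, SE 0.35, edgeR adjusted p = 6.3e-05). Tnni3, the inhibitory cardiac troponin, changed less. Tnni3 had 2755, 3144, 3392 and 3517 CPM in DOX_NMN hearts, against 1696, 1567, 1644 and 1681 CPM in DOX_Vehicle hearts. DOX_NMN hearts were about double the level of DOX_Vehicle hearts (log2 fold 0.96, SE 0.10, edgeR adjusted p = 9.3e-06). Mybpc3, the myosin-binding protein C that sets the speed of cross-bridges (log2 fold 0.87, SE 0.12, edgeR adjusted p = 7.3e-05), and Nebl, the Z-disc protein nebulette (log2 fold 0.87, SE 0.11, edgeR adjusted p = 5.1e-05), also rose. The 5 sarcomere genes that fell were Csrp3, Des, Cryab, Lmod2 and Actn2, whose log2 folds ran from -0.92 to -0.42. They include the intermediate filament desmin, its chaperone alpha B crystallin and the Z-disc proteins alpha actinin and muscle LIM protein.

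Myh7, which encodes the slower beta myosin of the fetal mouse ventricle, did not pass the test (ENSMUSG00000053093.16, chromosome 14 from 54970684 to 54994626 on GRCm38). Myh7 had 10667, 568, 304 and 4460.4 CPM in DOX_NMN hearts, against 8106, 7605, 14692 and 13512 CPM in DOX_Vehicle hearts. Replicate 1 of DOX_NMN lay inside the DOX_Vehicle range, replicate 4 below it, and replicates 2 and 3 far below, near the Sham_Vehicle mean of 327 CPM (log2 fold -1.46, SE 0.82, edgeR adjusted p = 0.18). Without replicate 1 of DOX_NMN the gene was called lower, with a log2 fold of -2.62 and an edgeR adjusted p = 0.0221, and limma-voom with sample weights also called it, at -4.00 with an adjusted p = 8.9e-05. The spread within DOX_NMN was therefore wider than for Myh6. Reads of the 2 myosin genes come from similar sequences, and how they were divided is uncertain.

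Most calcium handling genes were higher. Of 17 tested 12 were called higher and 0 lower, while 5 did not pass, with a median log2 fold of 0.66. The largest fold, 7.17, was that of Sln, which is also in the list of atrial markers. Hrc encodes the histidine-rich protein that binds calcium inside the sarcoplasmic reticulum (ENSMUSG00000038239.11, chromosome 7 from 45335290 to 45338974 on GRCm38). Hrc had 797, 1020.5, 1096 and 917 CPM in DOX_NMN hearts, against 384, 369.96, 388 and 400.5 CPM in DOX_Vehicle hearts. The 4 DOX_Vehicle hearts were within a narrow band and every DOX_NMN heart was well above it (log2 fold 1.31, SE 0.10, edgeR adjusted p = 7.6e-07). Atp2a2 encodes SERCA2, the pump that returns calcium to the store after each beat. Atp2a2 had 9568, 12659, 13789 and 12324 CPM in DOX_NMN hearts, against 6103, 8918, 7563 and 7432 CPM in DOX_Vehicle hearts. The lowest DOX_NMN heart was just above the highest DOX_Vehicle heart (log2 fold 0.69, SE 0.12, edgeR adjusted p = 6.3e-04). Ryr2, the channel that releases the stored calcium, also lay apart. Ryr2 had 886, 1116, 1584 and 1043 CPM in DOX_NMN hearts, against 546, 811, 829 and 742 CPM in DOX_Vehicle hearts. Replicate 1 of DOX_NMN was only a little above the DOX_Vehicle hearts (log2 fold 0.66, SE 0.16, edgeR adjusted p = 0.0037). Cacna2d1, an auxiliary subunit of the L-type calcium channel (log2 fold 0.87, SE 0.11, edgeR adjusted p = 3.9e-05), Srl, the luminal protein sarcalumenin (log2 fold 0.94, SE 0.16, edgeR adjusted p = 5.0e-04), and Trdn, which anchors the release complex (log2 fold 0.46, SE 0.08, edgeR adjusted p = 5.0e-04), were higher too. Among the larger-side libraries alone 4 of the 17 were called, all higher, with a median of 0.68, where 11.3% of all genes were called.

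Ion channel and conduction genes gave 15 higher and 0 lower of 25, with a median log2 fold of 0.94. Cacna1g encodes the T-type calcium channel Cav3.1 of pacemaker and conduction tissue. Cacna1g had 19.3, 17.0, 23.7 and 13.5 CPM in DOX_NMN hearts, against 3.79, 4.06, 3.15 and 2.76 CPM in DOX_Vehicle hearts. Each DOX_NMN heart was over 3 times any DOX_Vehicle heart (log2 fold 2.41, SE 0.24, edgeR adjusted p = 6.9e-06). Hcn4 encodes the main pacemaker channel of the sinus node. Hcn4 had 8.57, 13.0, 14.2 and 8.48 CPM in DOX_NMN hearts, against 2.15, 2.18, 0.591 and 1.78 CPM in DOX_Vehicle hearts. The order was the same (log2 fold 2.71, SE 0.33, edgeR adjusted p = 4.4e-05). Kcnq1 encodes the channel of the slow potassium current that helps end the action potential in human heart. Kcnq1 had 27.5, 32.0, 30.1 and 27.7 CPM in DOX_NMN hearts, against 17.7, 14.9, 13.7 and 14.0 CPM in DOX_Vehicle hearts. Values within each group were tight and the groups did not meet (log2 fold 0.96, SE 0.11, edgeR adjusted p = 1.4e-05). Hcn2, a second pacemaker channel, was higher as well (log2 fold 2.1, SE 0.23, edgeR adjusted p = 1.7e-05).

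Atrial markers moved beside these channel genes. The 7 atrial markers summed to 74.0 to 411 CPM in DOX_NMN hearts and 31.2 to 56.3 CPM in DOX_Vehicle hearts, against 185 to 288 CPM in Sham_NMN and 112 to 328 CPM in Sham_Vehicle. Of the 6 that could be tested 4 were called higher and 0 lower. Myl7, the atrial myosin light chain (ENSMUSG00000020469.8, chromosome 11 from 5896637 to 5898782 on GRCm38), shows how uneven this was. Myl7 had 71.4, 39.9, 4.34 and 0.0683 CPM in DOX_NMN hearts, against 0.820, 0.242, 0.0656 and 0 CPM in DOX_Vehicle hearts. Replicates 1 and 2 of DOX_NMN were high, replicate 3 was low and replicate 4 was under the floor of 3 counts (log2 fold 6.62, SE 1.75, edgeR adjusted p = 0.011), and the fold ran from 5.67 without replicate 1 of DOX_NMN to 7.99 without replicate 1 of DOX_Vehicle. The mean log2 level of the ion channel list in the 4 DOX_NMN hearts was -0.24, -0.10, -0.09 and -0.39 relative to the Sham_Vehicle mean, against -1.07, -0.87, -1.66 and -1.54 in DOX_Vehicle hearts. Replicate 4 of DOX_NMN, whose atrial list stood at -3.23 on that scale against -2.28 to -3.51 in DOX_Vehicle, was above every DOX_Vehicle heart in the channel list, which is a value of 1 library. The part of atrial tissue in the changes of the channel, calcium handling and sarcomere lists was not tested.

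Genes that heart muscle switches on under stretch and stress were more often lower than higher. Of 14 cardiac stress and load genes 7 were called lower (18.7% of all genes were) and 1 higher, with a median log2 fold of -1.16. Ankrd1 encodes a stretch-responsive repeat protein of the sarcomere and nucleus (ENSMUSG00000024803.9, chromosome 19 from 36111961 to 36120099 on GRCm38). Ankrd1 had 1748, 857, 734 and 1282 CPM in DOX_NMN hearts, against 4458, 3737, 8636 and 9825 CPM in DOX_Vehicle hearts. Even the highest DOX_NMN heart, replicate 1, was under the lowest DOX_Vehicle heart (log2 fold -2.53, SE 0.37, edgeR adjusted p = 2.0e-04). Ccn2 encodes connective tissue growth factor. Ccn2 had 60.5, 49.3, 39.2 and 87.3 CPM in DOX_NMN hearts, against 386, 153, 503 and 554 CPM in DOX_Vehicle hearts. The DOX_Vehicle hearts varied widely and still lay above (log2 fold -2.75, SE 0.37, edgeR adjusted p = 1.3e-04). Fhl1, a LIM protein raised in strained muscle (log2 fold -1.68, SE 0.22, edgeR adjusted p = 6.4e-05), and Xirp1, an actin-binding protein (log2 fold -0.98, SE 0.14, edgeR adjusted p = 8.1e-05), fell as well. Nppa and Nppb, the natriuretic peptides used as markers of cardiac load, did not pass (log2 fold 0.86, SE 0.40, edgeR adjusted p = 0.11 for Nppa and log2 fold 0.66, SE 0.65, edgeR adjusted p = 0.46 for Nppb). Nppb had 115, 149, 62.1 and 346 CPM in DOX_NMN hearts, against 208, 125, 44.9 and 47.3 CPM in DOX_Vehicle hearts. Replicate 4 of DOX_NMN was the highest and the 2 pairs of DOX_Vehicle differed. In the adrenergic and muscarinic list 4 of 14 were higher and 2 lower. Grk5, the kinase that desensitises beta adrenergic receptors, was among the lower ones. Grk5 had 56.1, 42.8, 34.1 and 51.7 CPM in DOX_NMN hearts, against 107, 149, 164 and 163 CPM in DOX_Vehicle hearts. Its groups did not overlap (log2 fold -1.66, SE 0.15, edgeR adjusted p = 2.6e-06).

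**Figure D3:**
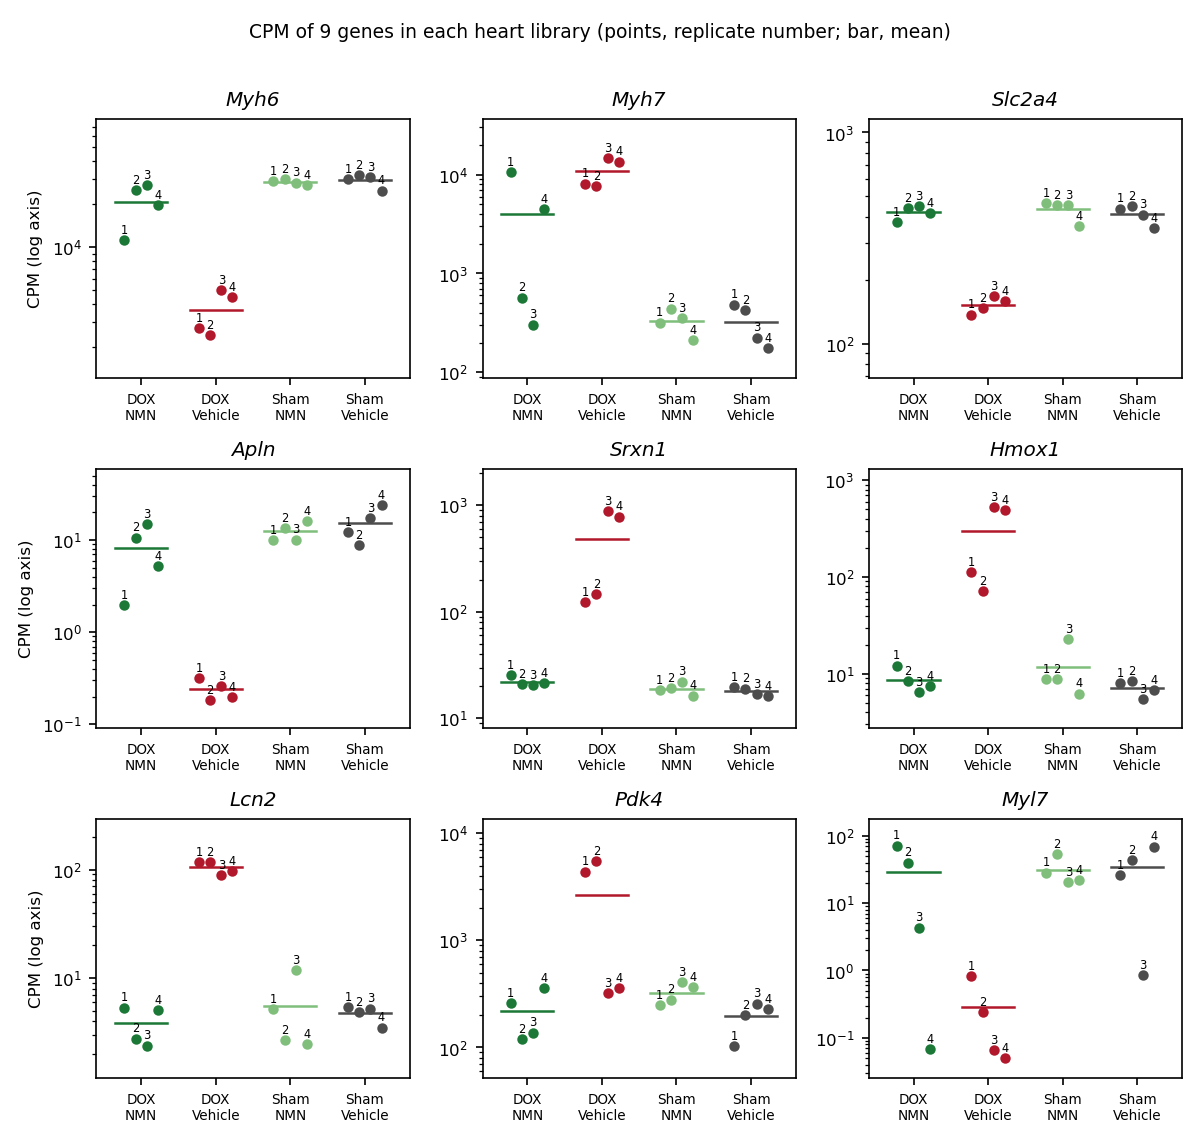
CPM per library, on a log axis, of Myh6, Myh7, Slc2a4, Apln, Srxn1, Hmox1, Lcn2, Pdk4 and Myl7 in DOX_NMN, DOX_Vehicle, Sham_NMN and Sham_Vehicle hearts, with replicate numbers on the points and bars at the group means; values under 0.05 CPM are drawn at 0.05. The doxorubicin groups do not meet in Myh6, Slc2a4, Apln, Srxn1, Hmox1 and Lcn2, while they overlap in Myh7, Pdk4 and Myl7.

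Respiratory chain genes that passed the test were nearly all higher, and those that rose did so by less than 2-fold. Mitochondrially encoded genes took 24.6%, 26.0%, 26.6% and 26.8% of all counts in DOX_NMN hearts, against 23.8%, 23.1%, 21.6% and 23.1% in DOX_Vehicle hearts. The share was higher in every DOX_NMN heart, with means of 26.0% ± 0.984 in DOX_NMN and 22.9% ± 0.931 in DOX_Vehicle (SD, n = 4 each). The difference of 3.11 percentage points had a 2-sided exact permutation p = 0.0286, the smallest that 4 against 4 allows. Of the 12 mitochondrially encoded genes tested 4 were called higher and 0 lower, a count that was 7 with upper-quartile scaling and 2 without replicate 3 or 4 of DOX_Vehicle or without replicate 2 or 3 of DOX_NMN. Among 46 nuclear genes of oxidative phosphorylation 14 were higher and 1 lower, with a median log2 fold of 0.19 and a range from -1.67 to 0.86. The share called was 32.6% of these 46 and 33.3% of the 12 mitochondrially encoded genes, against 36.1% of all genes. Of all genes 17.4% were called higher and 18.7% lower. Ndufs8 encodes an iron-sulphur subunit of complex I. Ndufs8 had 116, 159, 170.00 and 171 CPM in DOX_NMN hearts, against 89.8, 94.0, 90.2 and 95.6 CPM in DOX_Vehicle hearts. The lowest DOX_NMN value was above the highest DOX_Vehicle value (log2 fold 0.74, SE 0.13, edgeR adjusted p = 5.3e-04). Cyc1, the cytochrome of complex III, rose by less. Cyc1 had 467, 655, 735 and 604 CPM in DOX_NMN hearts, against 442, 421, 413 and 377 CPM in DOX_Vehicle hearts. Replicate 1 of DOX_NMN was close to the DOX_Vehicle hearts (log2 fold 0.57, SE 0.12, edgeR adjusted p = 0.0017). On the larger side of the split alone 3 of the 46 were called, all higher.

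Regulators of mitochondrial mass and fusion gave 9 higher and 3 lower of 22. Perm1 encodes a muscle protein that drives oxidative genes together with PGC-1 coactivators (ENSMUSG00000078486.3, chromosome 4 from 156215868 to 156221307 on GRCm38). Perm1 had 429, 411, 407 and 422 CPM in DOX_NMN hearts, against 203, 199, 86.6 and 86.8 CPM in DOX_Vehicle hearts. The 4 DOX_NMN hearts were nearly equal, and the DOX_Vehicle hearts were lower in their pairs (log2 fold 1.54, SE 0.23, edgeR adjusted p = 1.6e-04). Ppargc1b, one of those coactivators, followed (log2 fold 1.29, SE 0.24, edgeR adjusted p = 8.9e-04), as did Esrrg, an orphan nuclear receptor that works with them (log2 fold 0.81, SE 0.14, edgeR adjusted p = 5.1e-04), and Opa1, which fuses inner membranes (log2 fold 0.49, SE 0.09, edgeR adjusted p = 7.4e-04). Ppargc1a, the best known coactivator, was called (log2 fold 0.78, SE 0.24, edgeR adjusted p = 0.018) but not without replicate 4 of DOX_Vehicle (adjusted p = 0.058 by edgeR). The 3 that fell were Bnip3, Bnip3l and Nrf1, of which the first pair mark mitochondria for removal. Of 21 genes around the TCA cycle 8 were higher and 1 lower. Mdh1, the cytosolic malate dehydrogenase of the NADH shuttle (log2 fold 0.60, SE 0.10, edgeR adjusted p = 3.6e-04), Idh3a, a subunit of the NAD-dependent isocitrate dehydrogenase (log2 fold 0.60, SE 0.11, edgeR adjusted p = 5.4e-04), and Cs, citrate synthase (log2 fold 0.53, SE 0.10, edgeR adjusted p = 0.0011), were among those that rose.

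Of 21 genes of glucose uptake and glycolysis 8 were higher, 1 was lower and 12 did not pass. Slc2a4 encodes GLUT4, the insulin-responsive glucose transporter of muscle (ENSMUSG00000018566.14, chromosome 11 from 69942539 to 69948188 on GRCm38). Slc2a4 had 376, 439, 447 and 414 CPM in DOX_NMN hearts, against 137, 148, 168 and 159 CPM in DOX_Vehicle hearts. Each DOX_NMN heart had over 2 times the level of any DOX_Vehicle heart (log2 fold 1.45, SE 0.11, edgeR adjusted p = 7.6e-07). Hk2, the hexokinase that traps the sugar on mitochondria, was similar. Hk2 had 306, 363, 393 and 318 CPM in DOX_NMN hearts, against 90.5, 134, 143 and 131 CPM in DOX_Vehicle hearts. The groups were far apart here too (log2 fold 1.47, SE 0.14, edgeR adjusted p = 2.8e-06). Pfkfb2, which makes the activator of cardiac phosphofructokinase (log2 fold 1.46, SE 0.12, edgeR adjusted p = 1.1e-06), and Eno3, muscle enolase (log2 fold 1.52, SE 0.20, edgeR adjusted p = 5.5e-05), rose alongside. The 1 gene that fell was Slc2a1, the transporter GLUT1 of fetal heart and vessels. Genes of energy transfer within the cell gave 6 higher and 0 lower of 11, with the creatine kinases Ckb (log2 fold 1.72, SE 0.27, edgeR adjusted p = 3.0e-04) and Ckm (log2 fold 0.89, SE 0.16, edgeR adjusted p = 6.8e-04) and the oxygen store myoglobin, Mb (log2 fold 0.65, SE 0.13, edgeR adjusted p = 0.001). Branched-chain amino acid breakdown gave 8 higher and 0 lower of 16, with changes under 2-fold, such as Mccc2 of methylcrotonyl-CoA carboxylase (log2 fold 0.71, SE 0.09, edgeR adjusted p = 5.9e-05) and Mmut, the mitochondrial methylmalonyl-CoA mutase (log2 fold 0.66, SE 0.09, edgeR adjusted p = 7.7e-05).

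Fasting-responsive genes that passed the test were lower, but not evenly over the DOX_Vehicle hearts. Of 16 PPAR alpha and fasting targets 8 were lower and 0 higher, with a median log2 fold of -1.26. Acot1 encodes a cytosolic thioesterase induced by fasting (ENSMUSG00000072949.6, chromosome 12 from 84009490 to 84018371 on GRCm38). Acot1 had 13.0, 6.79, 5.06 and 9.16 CPM in DOX_NMN hearts, against 154, 122, 45.3 and 50.7 CPM in DOX_Vehicle hearts. Replicates 1 and 2 of DOX_Vehicle stood above 3 and 4, and these above the DOX_NMN hearts (log2 fold -3.45, SE 0.43, edgeR adjusted p = 7.8e-05). Pdk4, the kinase that shuts off pyruvate dehydrogenase in fasting, did not separate the groups (ENSMUSG00000019577.6, chromosome 6 from 5483351 to 5496309 on GRCm38). Pdk4 had 258, 119, 138 and 358 CPM in DOX_NMN hearts, against 4397, 5459, 321 and 359 CPM in DOX_Vehicle hearts. Replicate 3 of DOX_Vehicle lay within the DOX_NMN range and replicate 4 at its upper end (log2 fold -3.59, SE 0.83, edgeR adjusted p = 0.005). The log2 fold was 0.11 on the smaller side of the split and -2.94 without replicate 2 of DOX_Vehicle. For the whole list the mean log2 level relative to Sham_Vehicle was 2.1, 2.24, -0.03 and -0.05 in the 4 DOX_Vehicle hearts. On the larger side of the split 15 of 16 genes were called lower with a median of -1.75. On the smaller side, with its single DOX_NMN heart, the median was 0.29. Fatty acid oxidation genes gave 1 higher and 7 lower of 22, or 36.4% called, about the 36.1% of all genes. Their median was -0.24, with medians of -0.43 on the larger side and 0.12 on the smaller. Cd36, the fatty acid transporter, was called (log2 fold -0.84, SE 0.16, edgeR adjusted p = 9.6e-04), with a fold of -0.21 on the smaller side.

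The NRF2 list had 1 of the largest shares of genes called lower among the stress lists, and promoters of its members are shown for that reason. NRF2, encoded by Nfe2l2, is a transcription factor freed from KEAP1 when cells meet electrophiles, and it binds the antioxidant response element in the promoters of detoxifying genes. Of 36 NRF2 and antioxidant genes tested 30 had a promoter window in the RefSeq table of build GRCm38.p6, from 250 bases before to 50 after the start. The core TGACNNNGC on either strand was found in 11 of these 30 (36.7%), against 17.0% of the 10804 genes tested that have a window, 15.4% of those called higher and 19.6% of those called lower. Within the 250 upstream bases 8 of the 30 held it, and 5 of the 8 were called lower. Of all 36 genes of the list 26 were called lower, and whether the core goes with the fall was not tested. Of the 5 with the core that fell, the 3 with the largest fall are printed, with the core or its reverse complement in capitals. They are Gclm at chr3:122245307-122245556, Txnrd1 at chr10:82858956-82859205, a window of 1 of its alternative starts, and Sod1 at chr16:90220512-90220761, all on the plus strand and written from 5′ to 3′.
Gclm: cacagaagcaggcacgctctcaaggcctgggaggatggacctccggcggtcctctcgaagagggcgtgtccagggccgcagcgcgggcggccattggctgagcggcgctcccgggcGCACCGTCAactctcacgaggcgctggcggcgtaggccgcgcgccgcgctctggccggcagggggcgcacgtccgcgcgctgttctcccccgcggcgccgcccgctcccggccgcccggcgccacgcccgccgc
Txnrd1: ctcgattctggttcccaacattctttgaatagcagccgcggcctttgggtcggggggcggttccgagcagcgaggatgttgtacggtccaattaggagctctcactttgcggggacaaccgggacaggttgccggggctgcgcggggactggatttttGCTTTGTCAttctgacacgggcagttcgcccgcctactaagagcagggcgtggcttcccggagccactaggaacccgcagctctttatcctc
Sod1: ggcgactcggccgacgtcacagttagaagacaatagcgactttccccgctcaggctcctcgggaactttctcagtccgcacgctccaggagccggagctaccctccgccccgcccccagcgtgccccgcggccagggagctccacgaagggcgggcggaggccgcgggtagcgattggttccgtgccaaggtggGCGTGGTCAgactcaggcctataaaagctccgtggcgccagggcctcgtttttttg
Srxn1, at chr2:152105274-152105523 on the plus strand, had the largest fall of the list among genes with a window. Its 250 bases hold no such core but 2 copies of the AP-1 letters TGANTCA, in capitals. Over the full 300 bases, on either strand, 16.7% of the list's genes with a window and 6.29% of all tested genes with a window hold these letters.
Srxn1: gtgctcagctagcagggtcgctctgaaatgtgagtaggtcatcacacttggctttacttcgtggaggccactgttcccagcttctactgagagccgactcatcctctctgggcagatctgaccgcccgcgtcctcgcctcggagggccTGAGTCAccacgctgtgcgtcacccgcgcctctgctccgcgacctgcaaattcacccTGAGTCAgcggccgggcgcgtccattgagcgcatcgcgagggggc
A match of letters is a description of the sequence and not a site at which a factor was measured.

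Of the 36 genes 26 were called lower and 2 higher, with a median log2 fold of -0.78 beside 0.00 over all genes, and leaving out any 1 library gave 24 to 26 lower. Srxn1 encodes sulfiredoxin, which restores oxidised peroxiredoxins (ENSMUSG00000032802.8, chromosome 2 from 152105516 to 152111376 on GRCm38). Srxn1 had 25.3, 20.8, 20.4 and 21.3 CPM in DOX_NMN hearts, against 123, 146, 884 and 784 CPM in DOX_Vehicle hearts. The 4 DOX_NMN hearts were nearly equal, while replicates 3 and 4 of DOX_Vehicle stood several-fold above 1 and 2 (log2 fold -4.46, SE 0.56, edgeR adjusted p = 9.9e-05). Hmox1, haem oxygenase 1 (ENSMUSG00000005413.8, chromosome 8 from 75093621 to 75100589 on GRCm38), had the same 2 steps. Hmox1 had 12.2, 8.49, 6.43 and 7.45 CPM in DOX_NMN hearts, against 113, 71.3, 525 and 494 CPM in DOX_Vehicle hearts. Every DOX_Vehicle heart was above every DOX_NMN heart (log2 fold -5.12, SE 0.66, edgeR adjusted p = 1.3e-04). Nqo1, a reductase of quinones, fell too. Nqo1 had 124, 62.6, 55.5 and 82.9 CPM in DOX_NMN hearts, against 288, 252, 409 and 463 CPM in DOX_Vehicle hearts. Replicate 1 was the highest DOX_NMN heart and lay below the DOX_Vehicle range (log2 fold -2.12, SE 0.26, edgeR adjusted p = 4.8e-05). Cat, catalase, which splits hydrogen peroxide, was without the 2 steps. Cat had 345, 226, 229 and 260.1 CPM in DOX_NMN hearts, against 778, 746, 689 and 704 CPM in DOX_Vehicle hearts. Its 4 DOX_Vehicle hearts were close together and all above DOX_NMN (log2 fold -1.46, SE 0.13, edgeR adjusted p = 2.1e-06). Gsr, glutathione reductase (log2 fold -1.25, SE 0.14, edgeR adjusted p = 1.6e-05), and Pgd, which supplies NADPH from the pentose phosphate path (log2 fold -1.29, SE 0.15, edgeR adjusted p = 2.0e-05), fell as well. The 2 that rose were Sod2, the mitochondrial superoxide dismutase, at a log2 fold of 0.58 and Sod3, its secreted relative, at 0.72.

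Of 6 metallothionein and zinc genes 2 were lower and 0 higher, or 33.3% called, beside 36.1% of all genes. Mt1 encodes metallothionein 1, which binds zinc and copper and is induced by metals, glucocorticoids and oxidants (ENSMUSG00000031765.8, chromosome 8 from 94179082 to 94180327 on GRCm38). Mt1 had 133, 94.4, 99.96 and 124 CPM in DOX_NMN hearts, against 599.9, 768, 957 and 1062 CPM in DOX_Vehicle hearts. No DOX_NMN heart came near the DOX_Vehicle hearts (log2 fold -2.91, SE 0.29, edgeR adjusted p = 9.1e-06). Its close copy Mt2 had 0 counts in the DOX_NMN hearts and in 3 of the DOX_Vehicle hearts, so how reads of the 2 copies were divided is uncertain. The 250 bases before the RefSeq start of Mt1, at chr8:94178839-94179088 on the plus strand, are shown because metallothioneins are the textbook targets of metal response elements. Their last bases lie within the gene entry given above, which starts at 94179082. The 250 bases hold 1 copy of the core in the form TGCACNC, in capitals. Over the full 300 bases, on either strand, 15.3% of all tested genes with a window hold this form. Bases after the RefSeq start are not printed.
Mt1: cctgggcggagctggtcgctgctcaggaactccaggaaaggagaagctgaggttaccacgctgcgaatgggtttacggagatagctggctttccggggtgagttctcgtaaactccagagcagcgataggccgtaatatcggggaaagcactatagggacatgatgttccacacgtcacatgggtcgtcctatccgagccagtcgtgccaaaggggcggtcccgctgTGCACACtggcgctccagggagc
Of 22 iron and ferroptosis genes 9 were lower and 4 higher. Fth1, the heavy chain of the iron store ferritin, was among the lower. Fth1 had 2223, 1765, 1376 and 2395 CPM in DOX_NMN hearts, against 4005, 3161, 5933 and 6020.1 CPM in DOX_Vehicle hearts. DOX_Vehicle hearts lay above throughout (log2 fold -1.3, SE 0.19, edgeR adjusted p = 1.2e-04). Slc3a2, a subunit of the cystine transporter, fell (log2 fold -1.58, SE 0.24, edgeR adjusted p = 2.6e-04), while Steap3, an iron reductase (log2 fold 1.01, SE 0.16, edgeR adjusted p = 2.9e-04), and Tfrc, the transferrin receptor, at a log2 fold of 1.52, rose.

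Targets of p53 were more often lower than higher. Of 27 p53 targets 11 were lower and 2 higher, with a median log2 fold of -0.45. Cdkn1a encodes p21, which halts the cell cycle. Cdkn1a had 62.6, 42.0, 21.5 and 91.2 CPM in DOX_NMN hearts, against 175, 179.8, 225 and 224 CPM in DOX_Vehicle hearts. DOX_NMN hearts varied about 4-fold among themselves and all stayed below DOX_Vehicle (log2 fold -1.89, SE 0.34, edgeR adjusted p = 8.7e-04). Ephx1, an epoxide hydrolase (log2 fold -0.97, SE 0.17, edgeR adjusted p = 5.8e-04), and Perp, a membrane protein of desmosomes (log2 fold -0.57, SE 0.10, edgeR adjusted p = 4.1e-04), fell. Ccng1, a cyclin that p53 induces, went the other way (ENSMUSG00000020326.7, chromosome 11 from 40748552 to 40755311 on GRCm38). Ccng1 had 603, 965, 1124 and 756 CPM in DOX_NMN hearts, against 342, 452, 257 and 266 CPM in DOX_Vehicle hearts. Replicates 2 and 3 of DOX_NMN were highest and all 4 were above DOX_Vehicle (log2 fold 1.39, SE 0.18, edgeR adjusted p = 5.8e-05). Mdm2, which degrades p53, did not pass (log2 fold -0.05, SE 0.08, edgeR adjusted p = 0.68), with 55.4 to 69.0 CPM in DOX_NMN hearts and 61.1 to 68.6 CPM in DOX_Vehicle hearts.

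Myc, a growth-promoting transcription factor, led the 11 of 19 immediate early genes that fell, where 0 rose (ENSMUSG00000022346.16, chromosome 15 from 61985391 to 61990374 on GRCm38). Myc had 7.56, 3.46, 2.53 and 3.69 CPM in DOX_NMN hearts, against 37.1, 23.4, 42.5 and 45.1 CPM in DOX_Vehicle hearts. All DOX_Vehicle hearts were over 3 times any DOX_NMN heart (log2 fold -3.10, SE 0.31, edgeR adjusted p = 8.2e-06). Junb, a partner in the AP-1 factor, was similar (ENSMUSG00000052837.7, chromosome 8 from 84976910 to 84978718 on GRCm38). Junb had 15.7, 14.0, 16.2 and 14.3 CPM in DOX_NMN hearts, against 59.8, 68.4, 186 and 129 CPM in DOX_Vehicle hearts. The groups lay apart (log2 fold -2.88, SE 0.29, edgeR adjusted p = 1.5e-05). Of 18 glucocorticoid-responsive genes 9 were lower and 0 higher, and this list shares Mt1, Lcn2, Pdk4 and Cdkn1a with others. Cell death genes gave 7 lower and 0 higher of 23. That is 30.4% called, where 36.1% of all genes were called and 18.7% called lower. Birc3, an inhibitor of apoptosis (log2 fold -1.49, SE 0.22, edgeR adjusted p = 1.2e-04), Casp4, an inflammatory caspase (log2 fold -1.70, SE 0.34, edgeR adjusted p = 0.0012), and Bcl2l11, the pro-death protein BIM (log2 fold -0.68, SE 0.18, edgeR adjusted p = 0.0078), were lower. The genes called lower thus include opposite roles, and 16 of the 23 did not pass. The count of lower genes was 4 without replicate 3 or 4 of DOX_Vehicle. Of the 15 atrophy and FOXO targets 8 were lower and 0 higher. Irs2, an insulin receptor substrate (log2 fold -2.77, SE 0.60, edgeR adjusted p = 0.0033), and Eif4ebp1, a brake on translation (log2 fold -1.68, SE 0.24, edgeR adjusted p = 1.3e-04), were lower, whereas Fbxo32, the ubiquitin ligase atrogin 1, did not pass (log2 fold -0.52, SE 0.20, edgeR adjusted p = 0.053). It was called lower in 11 of 31 other settings, among them DESeq2 (adjusted p = 0.0386) and edgeR on the 8 doxorubicin libraries alone (adjusted p = 0.0278).

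Proteasome genes were lower nearly throughout. Of 27 proteasome genes 23 were lower and 1 higher, with a median log2 fold of -0.57. Psmd11 encodes a subunit of the lid of the proteasome (ENSMUSG00000017428.16, chromosome 11 from 80428615 to 80473248 on GRCm38). Psmd11 had 94.1, 73.9, 76.8 and 87.7 CPM in DOX_NMN hearts, against 195, 168, 276 and 288 CPM in DOX_Vehicle hearts. The groups did not meet (log2 fold -1.48, SE 0.14, edgeR adjusted p = 4.7e-06). Psmd4, a receptor for ubiquitin (log2 fold -1.29, SE 0.22, edgeR adjusted p = 4.3e-04), Psma5 of the core (log2 fold -0.80, SE 0.10, edgeR adjusted p = 3.4e-05) and Psmc4 of the ATPase ring (log2 fold -0.81, SE 0.14, edgeR adjusted p = 4.0e-04) followed, and the 1 that rose was Psme4, an activator of the core. Among autophagy and lysosome genes 13 of 26 were lower and 3 higher. Gabarapl1, which coats the growing autophagosome, had 1 of the smallest p-values of all genes (ENSMUSG00000030161.8, chromosome 6 from 129533160 to 129542346 on GRCm38). Gabarapl1 had 76.9, 56.5, 49.5 and 72.5 CPM in DOX_NMN hearts, against 199.95, 189, 202 and 215 CPM in DOX_Vehicle hearts. Each DOX_Vehicle heart had at least double any DOX_NMN heart (log2 fold -1.66, SE 0.13, edgeR adjusted p = 7.6e-07). Sqstm1, the cargo receptor p62, was more variable. Sqstm1 had 791, 435, 394 and 408 CPM in DOX_NMN hearts, against 1761, 1256, 2918 and 3022 CPM in DOX_Vehicle hearts. Replicate 1 of DOX_NMN stood apart from its group and was still below DOX_Vehicle (log2 fold -2.14, SE 0.29, edgeR adjusted p = 1.1e-04). Map1lc3b, a relative of Gabarapl1 (log2 fold -1.17, SE 0.17, edgeR adjusted p = 1.5e-04), and Atp6v1h, a subunit of the lysosomal proton pump (log2 fold -0.95, SE 0.11, edgeR adjusted p = 2.3e-05), were lower too.

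Genes of protein synthesis in the cytosol were lower, and those of the mitochondrial ribosome that passed were higher. Of 36 cytosolic ribosomal protein genes 34 were called lower and 0 higher, with a narrow range of log2 folds from -0.88 to -0.33 over the 36 and a median of -0.53. Rpl12 is an example. Rpl12 had 126, 104, 95.1 and 148 CPM in DOX_NMN hearts, against 194, 178, 211 and 229 CPM in DOX_Vehicle hearts. Replicates 1 and 4 of DOX_NMN were above replicates 2 and 3 and below DOX_Vehicle (log2 fold -0.78, SE 0.12, edgeR adjusted p = 1.7e-04). The mean log2 level of the list relative to Sham_Vehicle was 0.28, 0.03, -0.05 and 0.41 in DOX_NMN hearts, against 0.69, 0.52, 0.78 and 0.87 in DOX_Vehicle hearts. Of 24 genes of Myc and ribosome biogenesis 17 were lower and 1 higher. Gnl3, the nucleolar GTPase nucleostemin (log2 fold -1.36, SE 0.13, edgeR adjusted p = 5.4e-06), and Rrp12, an export factor of ribosomal subunits (log2 fold -1.07, SE 0.14, edgeR adjusted p = 4.8e-05), were among them. Aminoacyl-tRNA synthetases, which charge tRNAs, gave 15 lower and 0 higher of 20, but 7 without replicate 3 or 4 of DOX_Vehicle, 8 without replicate 2 or 3 of DOX_NMN, and 0 on the larger side of the split. Mitochondrial ribosome genes gave 10 higher and 0 lower of 25, for example Mrpl19 (log2 fold 0.99, SE 0.20, edgeR adjusted p = 0.0014) and Mrps27 (log2 fold 0.65, SE 0.12, edgeR adjusted p = 9.0e-04).

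Chaperone and stress response genes were mixed. Of 23 genes of the integrated stress response 7 were lower and 3 higher. Atf4, its central transcription factor, was lower. Atf4 had 61.1, 58.8, 65.6 and 75.1 CPM in DOX_NMN hearts, against 104, 88.0, 238 and 282 CPM in DOX_Vehicle hearts. Replicates 3 and 4 of DOX_Vehicle were over double 1 and 2 (log2 fold -1.45, SE 0.28, edgeR adjusted p = 0.0013). Psat1, an enzyme of serine synthesis, had the opposite pairing in DOX_Vehicle. Psat1 had 3.11, 2.70, 1.81 and 4.85 CPM in DOX_NMN hearts, against 19.7, 20.0, 5.58 and 6.45 CPM in DOX_Vehicle hearts. Replicates 1 and 2 were high there and 3 and 4 near the DOX_NMN hearts (log2 fold -2.05, SE 0.43, edgeR adjusted p = 0.002), and on the smaller side of the split the fold was -0.27. Endoplasmic reticulum chaperones gave 4 lower and 0 higher of 20, but 2 lower without replicate 3 or 4 of DOX_Vehicle and 0 on the larger side of the split. The share called was 20.0%, beside 18.7% of all genes called lower, and the list had a median log2 fold of 0.07. Its mean log2 level relative to Sham_Vehicle was 0.32 in DOX_NMN and 0.33 in DOX_Vehicle hearts. Xbp1, a transcription factor of the unfolded protein response, was 1 of the 4 (log2 fold -1.09, SE 0.20, edgeR adjusted p = 7.6e-04). Heat shock proteins gave 6 lower and 2 higher of 19, with the muscle chaperone partner Bag3 (log2 fold -0.95, SE 0.20, edgeR adjusted p = 0.0016) and the cytosolic chaperone Hspa8 (log2 fold -0.55, SE 0.12, edgeR adjusted p = 0.003) lower.

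Inflammatory mediators and neutrophil transcripts were much lower in DOX_NMN hearts. Of 20 acute-phase and inflammatory genes 16 were lower and 0 higher, with a median log2 fold of -1.91. The list has 28 members, and those high only in DOX_Vehicle could enter the 20 tested through that group. Lcn2 encodes lipocalin 2, which starves bacteria of iron (ENSMUSG00000026822.14, chromosome 2 from 32384633 to 32388252 on GRCm38). Lcn2 had 5.33, 2.77, 2.39 and 5.06 CPM in DOX_NMN hearts, against 117, 117, 89.1 and 96.8 CPM in DOX_Vehicle hearts. DOX_Vehicle hearts were close to each other and more than 10 times any DOX_NMN heart (log2 fold -4.75, SE 0.42, edgeR adjusted p = 6.3e-06). Socs3, a brake on interleukin 6 signalling, followed the DOX_Vehicle pairs. Socs3 had 4.86, 4.53, 3.54 and 4.24 CPM in DOX_NMN hearts, against 25.7, 22.1, 187 and 157 CPM in DOX_Vehicle hearts. Replicates 3 and 4 were several-fold above 1 and 2, and the DOX_NMN hearts were below all of them (log2 fold -4.51, SE 0.62, edgeR adjusted p = 1.8e-04). Serpina3n, a protease inhibitor of a family with many close copies, was similar (log2 fold -4.62, SE 0.55, edgeR adjusted p = 6.9e-05). The chemokines Cxcl1 (log2 fold -2.95, SE 0.44, edgeR adjusted p = 1.4e-04) and Cxcl2 (log2 fold -5.01, SE 0.94, edgeR adjusted p = 0.001), which draw neutrophils, were lower. Cxcl2 was at -4.39 without replicate 4 of DOX_Vehicle. Cxcl9, which draws T cells, was higher (log2 fold 1.64, SE 0.32, edgeR adjusted p = 0.0011). The chemokine list as a whole gave 3 higher and 4 lower of 16.

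Markers of neutrophils moved with these mediators. Their 10 markers summed to 9.18 to 24.6 CPM in DOX_NMN hearts and 142 to 230 CPM in DOX_Vehicle hearts, against 5.65 to 16.3 CPM in Sham_NMN and 6.26 to 12.5 CPM in Sham_Vehicle. Of the 9 tested 8 were called lower, with a median log2 fold of -3.44. A marker could pass the filter on low counts through the DOX_Vehicle libraries alone, which favours a lower call. The count of calls is therefore no test of these markers. The list shares Lcn2 with the mediators, and Lcn2 makes up most of the sum in DOX_Vehicle. S100a8, a calcium-binding protein that fills the neutrophil cytosol, is free of that overlap. S100a8 had 2.5, 0.440, 0.651 and 0.957 CPM in DOX_NMN hearts, against 21.8, 7.33, 9.65 and 11 CPM in DOX_Vehicle hearts. The groups lay apart (log2 fold -3.44, SE 0.65, edgeR adjusted p = 0.0011). Macrophage markers, by contrast, summed to 161 to 254 CPM in DOX_NMN and 182 to 236 CPM in DOX_Vehicle, and 1 of 10 was called. The part of neutrophils in the changes of the mediators was not tested.

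Antigen presentation genes were higher. All 7 MHC class II genes tested were called higher, with a median log2 fold of 1.78. Cd74 encodes the invariant chain that guides these molecules (ENSMUSG00000024610.15, chromosome 18 from 60803848 to 60812652 on GRCm38). Cd74 had 37.3, 69.4, 75.1 and 34.7 CPM in DOX_NMN hearts, against 9.40, 9.14, 22.3 and 22.1 CPM in DOX_Vehicle hearts. Replicates 2 and 3 of DOX_NMN were the highest, replicates 3 and 4 of DOX_Vehicle were over double 1 and 2, and the groups lay apart (log2 fold 1.78, SE 0.32, edgeR adjusted p = 8.3e-04). H2-Aa (log2 fold 1.96, SE 0.35, edgeR adjusted p = 7.3e-04) and H2-Eb1 (log2 fold 1.94, SE 0.32, edgeR adjusted p = 4.3e-04), chains of the presenting molecules, rose as well. On the larger side of the split 6 of the 7 were called with a median of 2.71, and the median on the smaller side was 0.70. Transcripts of B cells, themselves carriers of these molecules, moved with them. Their 6 markers summed to 5.47 to 7.61 CPM in DOX_NMN and 0.883 to 1.84 CPM in DOX_Vehicle hearts, and the 1 that could be tested, Ighm of the antibody heavy chain, was higher (log2 fold 2.93, SE 0.38, edgeR adjusted p = 5.3e-05). Ighm had 4.86, 6.79, 5.28 and 4.58 CPM in DOX_NMN hearts, against 0.442, 1.15, 0.591 and 0.592 CPM in DOX_Vehicle hearts. Ighm makes up most of the marker sum in DOX_NMN hearts, so the sum and this test rest largely on 1 gene. How much B cells contribute to the change of the MHC class II genes was not tested. Among 25 interferon-stimulated genes 7 were higher and 0 lower, including the guanylate-binding proteins Gbp2 (log2 fold 1.04, SE 0.13, edgeR adjusted p = 4.5e-05) and Gbp3 (log2 fold 1.33, SE 0.20, edgeR adjusted p = 1.6e-04), which belong to a family of near copies.

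Matrix genes gave 14 higher and 4 lower of 26 in the list of collagens and matrix, but 4 higher and 2 lower without replicate 3 or 4 of DOX_Vehicle or replicate 3 of DOX_NMN, and 7 and 3 without replicate 2 of DOX_NMN. Col14a1, a collagen that sits on fibrils, was higher. Col14a1 had 8.84, 19.0, 15.5 and 6.15 CPM in DOX_NMN hearts, against 3.15, 3.63, 1.71 and 1.38 CPM in DOX_Vehicle hearts. Replicates 2 and 3 of DOX_NMN were over 1.5 times replicates 1 and 4 (log2 fold 2.31, SE 0.43, edgeR adjusted p = 0.0011). Col1a1, the main fibrillar collagen, did not pass (log2 fold 1.67, SE 0.83, edgeR adjusted p = 0.13). Col1a1 had 17.9, 89.7, 82.2 and 37.5 CPM in DOX_NMN hearts, against 17.8, 47.9, 3.02 and 2.5 CPM in DOX_Vehicle hearts. The groups overlapped. Lox, which crosslinks collagen, was lower (ENSMUSG00000024529.14, chromosome 18 from 52516067 to 52529867 on GRCm38). Lox had 8.51, 4.72, 4.34 and 10.3 CPM in DOX_NMN hearts, against 25.6, 23.9, 45.7 and 41.3 CPM in DOX_Vehicle hearts. All DOX_Vehicle hearts were above (log2 fold -2.29, SE 0.28, edgeR adjusted p = 3.8e-05). Of 21 matrix proteases and inhibitors 12 were lower and 2 higher, among them Timp1, an inhibitor of metalloproteases (log2 fold -3.32, SE 0.44, edgeR adjusted p = 6.6e-05), Plaur, the urokinase receptor (log2 fold -2.45, SE 0.44, edgeR adjusted p = 6.4e-04), and Adamts1, an aggrecanase (log2 fold -1.64, SE 0.25, edgeR adjusted p = 2.9e-04). In TGF beta signalling 5 of 21 were lower and 3 higher, or 38.1% called, near the 36.1% of all genes. Tgfbr2, the receptor that binds the ligand, was lower (log2 fold -1.15, SE 0.17, edgeR adjusted p = 1.4e-04). Ltbp1, which stores the ligand in the matrix, was higher (log2 fold 1.17, SE 0.15, edgeR adjusted p = 5.0e-05). Fibroblast markers moved beside the collagens, since their sum was 2019 to 2300 CPM in DOX_NMN hearts and 1505 to 1754 CPM in DOX_Vehicle hearts and 4 of 9 were higher and 1 lower. These markers include the collagens Col1a1 and Col1a2 and the matrix gene Lum, so markers and matrix genes are not separate sets. The part of fibroblasts in the collagen change was not tested.

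Genes that make and use NAD did not share a direction. Of 26 in the list of NAD synthesis, use and clearance 9 were higher and 4 lower, with a median log2 fold of -0.13. Without replicate 4 of DOX_Vehicle 3 were higher and 1 lower, and on the larger side of the split 1 was called. Sirt3, the main mitochondrial deacetylase that spends NAD, was higher (ENSMUSG00000025486.17, chromosome 7 from 140863666 to 140882309 on GRCm38). Sirt3 had 20.3, 27.4, 31.3 and 24.3 CPM in DOX_NMN hearts, against 15.8, 20.2, 9.45 and 10.00 CPM in DOX_Vehicle hearts. The highest DOX_Vehicle heart was just below the lowest DOX_NMN heart (log2 fold 0.89, SE 0.19, edgeR adjusted p = 0.0021). Aox1, an aldehyde oxidase that also clears nicotinamide metabolites, was lower (ENSMUSG00000063558.4, chromosome 1 from 58029931 to 58106413 on GRCm38). Aox1 had 115, 46.8, 49.4 and 53.7 CPM in DOX_NMN hearts, against 207, 228, 348 and 338 CPM in DOX_Vehicle hearts. Replicate 1 of DOX_NMN was over double its group mates and still below DOX_Vehicle (log2 fold -2.08, SE 0.30, edgeR adjusted p = 1.7e-04). Parp1, which builds poly(ADP-ribose) from NAD at DNA breaks (log2 fold 0.47, SE 0.10, edgeR adjusted p = 0.0025), and Nmnat3, which turns NMN into NAD in mitochondria (log2 fold 0.36, SE 0.10, edgeR adjusted p = 0.01), were higher. Nmrk1, a nicotinamide riboside kinase, was higher (log2 fold 0.47, SE 0.16, edgeR adjusted p = 0.029) and the deacetylase Sirt1 (log2 fold -0.62, SE 0.19, edgeR adjusted p = 0.017) and the glycohydrolase Cd38 (log2 fold -0.62, SE 0.19, edgeR adjusted p = 0.016) were lower. These 3 calls were each lost without replicate 3 or 4 of DOX_Vehicle, those of Nmrk1 and Sirt1 also without replicate 2 or 3 of DOX_NMN, and that of Nmrk1 without replicate 1 of DOX_NMN. Nampt, which makes NMN from nicotinamide, did not pass. Nampt had 509.7, 366, 340.3 and 318 CPM in DOX_NMN hearts, against 443, 439, 388 and 419 CPM in DOX_Vehicle hearts. Replicate 1 of DOX_NMN was the highest and the groups overlapped (log2 fold -0.14, SE 0.17, edgeR adjusted p = 0.54). Nmrk2, the muscle kinase for nicotinamide riboside (log2 fold -0.22, SE 0.31, edgeR adjusted p = 0.61), and Nnmt, which methylates nicotinamide (log2 fold -0.71, SE 0.28, edgeR adjusted p = 0.053), did not pass either.

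The remaining lists were mixed. Among 16 doxorubicin targets, reduction and efflux genes 4 were higher and 4 lower, with 2 higher without replicate 2, 3 or 4 of DOX_Vehicle or replicate 2 or 3 of DOX_NMN. Top2b, the topoisomerase that doxorubicin traps in heart muscle, did not pass (log2 fold -0.20, SE 0.08, edgeR adjusted p = 0.07). Por, a reductase that can pass electrons to the drug, was lower (log2 fold -0.94, SE 0.16, edgeR adjusted p = 5.0e-04), and Abcb8, a mitochondrial transporter, was higher (log2 fold 0.72, SE 0.16, edgeR adjusted p = 0.0021). Of 16 angiogenic factors 5 were higher and 1 lower, with 8 higher under upper-quartile scaling. Vegfa, the main vessel growth factor, was higher. Vegfa had 363, 348, 324 and 283 CPM in DOX_NMN hearts, against 251, 207, 97.6 and 94.6 CPM in DOX_Vehicle hearts. The smaller-side DOX_Vehicle hearts were the lowest (log2 fold 1.02, SE 0.24, edgeR adjusted p = 0.0047). In the cell cycle list 6 of 24 were higher and 3 lower, and 3 were higher without replicate 1 of DOX_Vehicle. Ccnd2, a G1 cyclin, was higher (log2 fold 1.39, SE 0.16, edgeR adjusted p = 1.8e-05) and Pcna, the clamp of DNA replication, lower (log2 fold -0.55, SE 0.13, edgeR adjusted p = 0.0041). Among 20 cholesterol synthesis genes 6 were higher and 2 lower, with 3 higher without replicate 4 of DOX_NMN or of DOX_Vehicle and 0 called on the larger side of the split. Clock genes gave 3 higher and 2 lower of 19, with Hlf, an output factor, higher (log2 fold 1.63, SE 0.40, edgeR adjusted p = 0.006).

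The 4 DOX_NMN hearts were not alike. Replicates 2 and 3 differed by a chi-square of 6.51 per gene, and the other pairs by 24.8 to 51.2. Over all genes tested 42.0%, 60.8%, 64.6% and 45.5% of genes lay within the range of the 4 Sham_Vehicle hearts in DOX_NMN replicates 1 to 4, against 31.2%, 35.2%, 22.8% and 22.3% in DOX_Vehicle. In Sham_NMN hearts this share was 60.7% to 65.1%. The root mean square log2 distance from the Sham_Vehicle mean was 0.563, 0.401, 0.368 and 0.533 in DOX_NMN, against 0.836, 0.743, 1.13 and 1.14 in DOX_Vehicle. Replicates 1 and 4 of DOX_NMN were thus farther from Sham_Vehicle than 2 and 3. Haemoglobin transcripts separated replicate 3 from the rest. Hbb-bs had 2.57, 0, 174 and 0.478 CPM in DOX_NMN hearts, against 0, 0.363, 1.05 and 0.132 CPM in DOX_Vehicle hearts. For this beta globin gene the Sham_NMN and Sham_Vehicle means were 142 and 239 CPM, and only replicate 3 of DOX_NMN was in that region (log2 fold 6.82, SE 1.93, edgeR adjusted p = 0.016). Without that heart the log2 fold was 1.37 with an edgeR adjusted p = 0.31. The 7 erythroid markers summed to 0.377 to 322 CPM in DOX_NMN and 0.379 to 2.56 CPM in DOX_Vehicle hearts. Globin genes have near-identical copies.

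**Figure D4:**
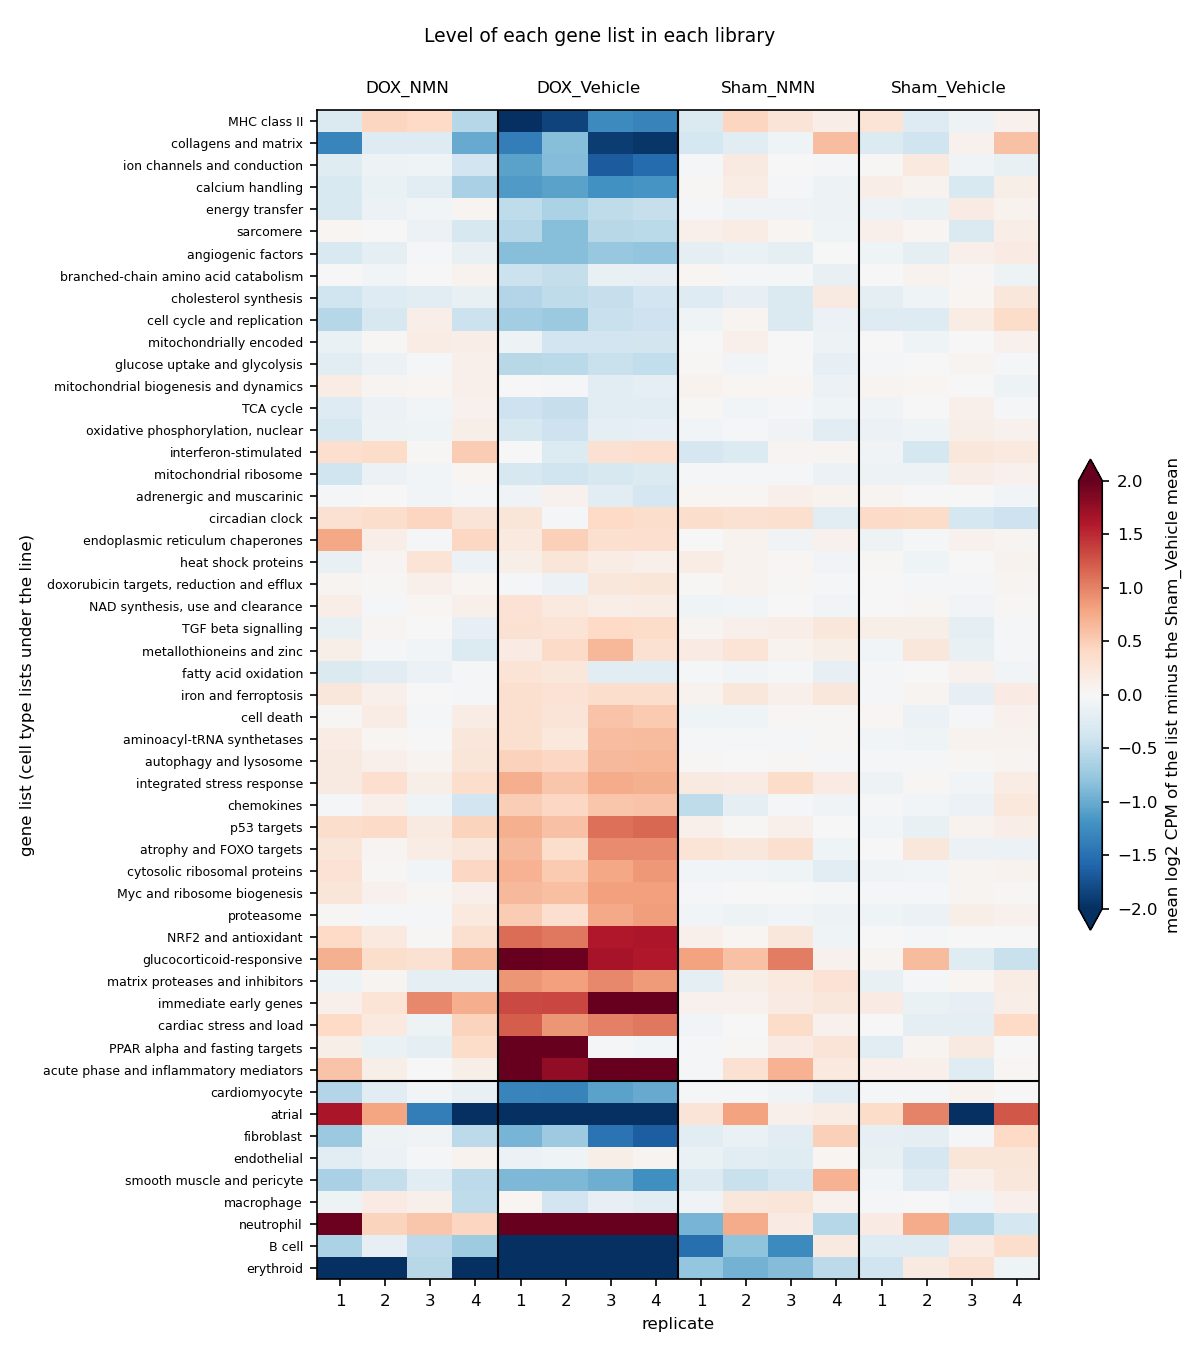
Mean log2 CPM of each of 44 pathway lists and 9 cell type lists in each of the 16 libraries, relative to the Sham_Vehicle mean, as colours limited to 2 log2 units either way. DOX_Vehicle columns are the most strongly coloured, DOX_NMN replicates 2 and 3 are close to the sham columns in many rows, and replicates 1 and 4 lie between in many rows. Rows outside this order include endoplasmic reticulum chaperones in replicate 1 (0.77, against 0.19 to 0.47 in DOX_Vehicle) and interferon-stimulated genes in replicate 4 (0.51, against at most 0.33). The erythroid row is near the sham level in replicate 3 of DOX_NMN and far below it in the other doxorubicin hearts.

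NMN without doxorubicin gave no call. In Sham_NMN against Sham_Vehicle hearts 0 of 14716 genes passed in edgeR and 332 (2.26%) had an unadjusted p under 0.05. DESeq2 called 0 as well, with 361 under that p, and limma-voom with sample weights called 0 with 1626. Each gene had 1 estimate of its spread over all 16 libraries. The SD as a percentage of the mean had a median of 15.9% in DOX_NMN and 20.5% in DOX_Vehicle. It was 11.9% in Sham_NMN and 13.9% in Sham_Vehicle. The sham libraries were not fitted alone, so small effects of NMN there may have been missed. The median size of the log2 fold was 0.11 in this sham comparison, against 0.36 in DOX_NMN against DOX_Vehicle. Whether NMN acted differently with and without doxorubicin was tested by the interaction, the difference of the 2 log2 folds, which shares no library between its parts. It was called for 2654 genes (18.0%), of which 1359 (9.23%) were higher and 1295 (8.80%) lower. Upper-quartile scaling gave 1597 higher and 1063 lower. Leaving out 1 library at a time gave 1673 to 4114 interaction calls.

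Mmab, Gpt and Anxa7 were among the genes with the smallest interaction p. Mmab encodes the enzyme that adenosylates vitamin B12 in mitochondria (ENSMUSG00000029575.17, chromosome 5 from 114431034 to 114444060 on GRCm38). Mmab averaged 43.4 ± 3.13 CPM in DOX_NMN and 17.6 ± 1.63 CPM in DOX_Vehicle hearts, and 35.7 ± 2.24 CPM in Sham_NMN and 39.2 ± 2.41 CPM in Sham_Vehicle hearts (SD, n = 4 each). DOX_Vehicle hearts were below the other 3 groups (interaction 1.44, SE 0.13, edgeR adjusted p = 1.9e-05). Gpt encodes alanine transaminase (ENSMUSG00000022546.5, chromosome 15 from 76695716 to 76699686 on GRCm38). Gpt averaged 33.1 ± 7.86 CPM in DOX_NMN and 8.08 ± 1.68 CPM in DOX_Vehicle hearts, and 38.2 ± 1.74 CPM in Sham_NMN and 42.8 ± 4.13 CPM in Sham_Vehicle hearts (SD, n = 4 each). The DOX_Vehicle hearts were again below (interaction 2.20, SE 0.23, edgeR adjusted p = 4.6e-05). Anxa7, an annexin that binds calcium and membranes, went the opposite way (ENSMUSG00000021814.17, chromosome 14 from 20455260 to 20480133 on GRCm38). Anxa7 averaged 92.1 ± 5.97 CPM in DOX_NMN and 218 ± 15.1 CPM in DOX_Vehicle hearts, and 85.9 ± 4.69 CPM in Sham_NMN and 82.1 ± 2.89 CPM in Sham_Vehicle hearts (SD, n = 4 each). On average DOX_Vehicle hearts were at more than 2 times each other group (interaction -1.31, SE 0.11, edgeR adjusted p = 1.9e-05). For Gabarapl1 (interaction -1.89, SE 0.18, edgeR adjusted p = 3.9e-05) and Cat (interaction -1.52, SE 0.18, edgeR adjusted p = 1.1e-04) the interaction was negative too. DOX_Vehicle hearts themselves had 7145 genes (48.6%) called against Sham_Vehicle. That comparison uses the same DOX_Vehicle libraries, so its folds are given only side by side. Myh6 had a log2 fold of 2.52 in DOX_NMN against DOX_Vehicle and -3.02 in DOX_Vehicle against Sham_Vehicle. Slc2a4 had 1.45 and -1.43, Hrc 1.31 and -1.50, Srxn1 -4.46 and 4.75, and Lcn2 -4.75 and 4.46.

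**Figure D5:**
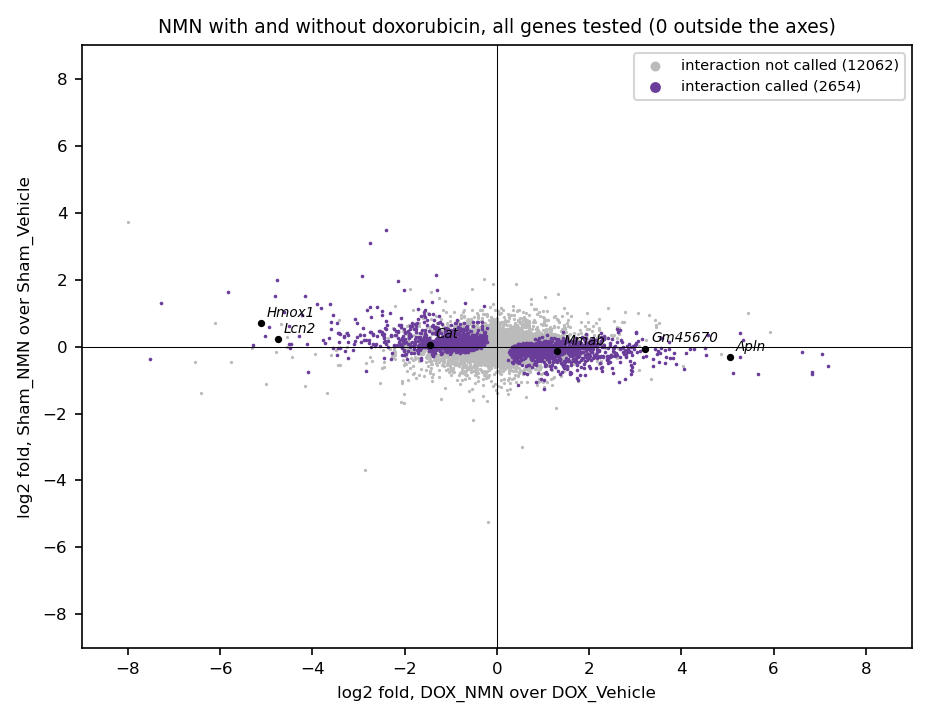
Log2 fold of DOX_NMN over DOX_Vehicle (horizontal axis) against log2 fold of Sham_NMN over Sham_Vehicle (vertical axis) for each gene tested, with both axes running from -9 to 9. The 2654 genes called for the interaction are purple and the 12062 others grey; the cloud is much wider along the horizontal axis, where the median size of the log2 fold was 0.36, than along the vertical axis, where it was 0.11.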

How the data were processed

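Poly(A) selection is not stated in the sources used here. Libraries were made from total RNA with a NEBNext Ultra kit, which keeps no strand, per the labels' protocols, so genes that overlap on opposite strands cannot be told apart. Reads were handled with HISAT2 2.1.0 and HTSeq 0.6.0 on GRCm38, per the submitters' processing notes. The deposited count tables give whole reads per gene. The deposited FPKM values equal count over total and gene length within a relative 1.3e-13, and were not tested. From the counts, edgeR 4.0.16 (TMM scaling, filterByExpr, robust quasi-likelihood) fitted all 16 libraries together and contrasts gave each comparison, with Benjamini-Hochberg adjustment at 0.05. CPM use TMM-scaled totals, and the common dispersion was 0.0377. Genes named are the 15 largest and 15 smallest folds among called genes without overlap and with a mean of at least 5 CPM, up to 4 genes per list and up to 5 per direction with the smallest p, up to 5 interaction genes per direction, and 39 fixed genes. Other list members were named after their values were seen. The comparison, its 60 lists and the fixed genes were chosen with earlier results of these data known. The procedure was tested on simulated data. DESeq2 1.42.0, limma 3.58.1, RLE and upper-quartile scaling, and fits with fewer libraries were among the alternatives.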

Additional observations from a re-analysis of the deposited data

Results flagged for a closer look

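Among 82 group-and-gene pairs, 3 had 1 library far from the other 3 of its group, where chance flags about 1 in 20. Aox1 stood at 115 CPM in replicate 1 of DOX_NMN. Sqstm1 stood at 791 CPM in the same library. Alas2, an enzyme of haem synthesis in red cells, stood at 7.73 CPM in replicate 3 of DOX_NMN.

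The effect of NMN differed with and without doxorubicin in 2654 genes by the interaction test. The genes with the smallest p in each direction had these interaction log2 values, all past an edgeR adjusted p of 0.05. The higher ones were Gm45670 at 3.26, Mmab at 1.44, Ttll1 at 2.05, Cpn2 at 3.77 and Gpt at 2.20. The lower ones were Anxa7 at -1.31, Gabarapl1 at -1.89, Mvp at -1.40, Cat at -1.52 and Efhd2 at -1.84. Gm45670 lies antisense to Dhx32, whose own log2 fold in DOX_NMN against DOX_Vehicle was -0.57.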

How the results depend on the processing

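Called genes in DOX_NMN against DOX_Vehicle numbered 8539 (4220 higher, 4319 lower) with limma-voom sample weights, 978 (519, 459) in a test against a fold of 1.5, 2996 (1424, 1572) at an adjusted p of 0.01, 3294 (1577, 1717) in the 8 doxorubicin libraries alone and 1636 (805, 831) on the larger side of the split. Upper-quartile scaling gave 5302 (3036, 2266) and the smaller side 6584 (3326, 3258), from 1 DOX_NMN library. Leaving out 1 library gave 3760 to 6318, 1808 to 3184 higher and 1952 to 3134 lower. Of the 5306 genes, 5281 remained called with the same sign under RLE scaling, 5288 in DESeq2, 1431 on the larger side, where 27 changed sign, and 4136 on the smaller, where 47 did. The interaction gave 7010 (3593 higher, 3417 lower) with voom weights, 409 (236, 173) against a fold of 1.5 and 851 (464, 387) at 0.01, and 2660 (1597, 1063) with upper-quartile scaling. Leaving out 1 library gave 1673 to 4114, 878 to 2116 higher and 795 to 1998 lower. DOX_Vehicle against Sham_Vehicle gave 2279 (1080, 1199) against a fold of 1.5. Sham_NMN against Sham_Vehicle gave 0 in each setting run. The difference in mitochondrially encoded share ran from 2.67 to 3.57 points when 1 library was left out, with an exact permutation p = 0.0571 each time, the smallest that 3 against 4 allows.

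Replicate numbers matched the libraries only in part. Replicates 1 and 2 of every group lay on the larger side of the split and replicate 4 of every group on the smaller side, while replicate 3 differed between groups. Same-numbered DOX_NMN and DOX_Vehicle libraries had correlations of -0.0169, 0.186, -0.117 and 0.237, and only numbers 2 and 4 matched best with their own. With a replicate block 5285 genes were called, and 2928 (1485 higher, 1443 lower) in the 8 doxorubicin libraries alone.

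Of 269 named genes tested, 116 kept 1 call in every setting and 4 changed sign in some. On the smaller side of the split the log2 fold was 0.11 for Pdk4, -0.26 for Hbb-bs and -1.67 for Hba-a1. Alas2 ran from -0.29 without replicate 3 of DOX_NMN to 3.75 without replicate 1. The cause was not tested. Depth limits genes near 3 counts, and 4 libraries a group limit the rest.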

Other observations

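The myosin locus on chromosome 14 of GRCm38 holds further entries that were higher in DOX_NMN hearts. Mhrt, a transcript opposite to Myh7 from 54968678 to 54974349, averaged 33.4 ± 18.4 CPM in DOX_NMN and 2.87 ± 1.60 CPM in DOX_Vehicle hearts (SD, n = 4 each). Its log2 fold was 3.53 with an edgeR adjusted p = 1.3e-04. The entry Mir208b, from 54975700 to 54975776 inside Myh7 and on its strand, had a log2 fold of 4.54 with an edgeR adjusted p = 6.1e-05, while Myh7 itself stood at -1.46 and did not pass. Gm49130, which overlaps the end of Myh6 on the other strand, stood at 4.11. Whether reads at Mir208b come from the microRNA or from longer transcripts was not tested, and unstranded reads cannot be told apart between opposite genes.

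Promoter letters of the endoplasmic reticulum chaperones stood apart from their folds. The letters CCAAT on either strand were in 17 of the 18 genes with a window (94.4%), against 42.5% of all tested genes with a window, while 4 of 20 genes were called. For genes called higher the share with CCAAT was 42.1%, and for those called lower 40.8%.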
